A study of Homo sapiens with 6 samples.

Results

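The genes described are 5 Toll-like receptors (TLR1, TLR2, TLR3, TLR4 and TLR6), the adaptors TICAM1 and MYD88, the receptor chaperone UNC93B1, and the kinases IRAK1 and IRAK2. They were chosen by symbol, and all 10 had a row among the 62710 Ensembl genes of the table. The cells were HT1080, an established human fibrosarcoma cell line, either left untreated or given 20 ng/mL human IFNβ for 24 h, with 3 libraries per group. No other treatment and no genetic change separates the groups in the labels, and all libraries come from a single cell line. For these cells the paper's RNA sequencing methods name mouse IFNβ, whereas its cell culture methods and the labels of these libraries name the human protein.

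Toll-like receptors are membrane proteins that recognise molecules of microbes, some at the cell surface and some in endosomes. After a ligand binds, their intracellular TIR domains recruit TIR adaptors. TLR3 signals through TICAM1 (also called TRIF), TLR4 uses both TICAM1 and MYD88, and the other human receptors of the family rely on MYD88, which gathers IRAK kinases into a complex called the myddosome. UNC93B1 carries the endosomal receptors out of the endoplasmic reticulum. These pathways lead to NF-κB and to IRF transcription factors, and are best known from macrophages and dendritic cells, while fibroblasts and tumor cells carry a smaller set of the receptors.

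The authors deposited FPKM, the fragments of a gene scaled by its length and by the fragments of its library. Each FPKM could be turned back into whole fragments, and the libraries were divided by between 22848104 and 32915500 fragments. IFIT1, MX1, ISG15 and OAS1, known interferon-stimulated genes, had a mean FPKM between 103 and 450 times higher in the treated libraries. Of 8 leukocyte markers, 6 had a mean FPKM under 0.1 and PTPRC had at most 0.0126 FPKM in any library. The summed FPKM of these markers lay between 1.18 and 1.29 in untreated and between 1.21 and 1.31 in IFNβ-treated libraries, mostly from CSF1R. PTPRC summed to 1 fragment in the untreated and 11 fragments in the treated libraries. Of 7 mesenchymal markers, all but THY1 reached a mean FPKM of 0.1, and 5 of these 6 passed the limma test used for all genes. Their log2 fold changes were -0.29 for VIM, -0.09 for CD44, 0.51 for FN1, 0.12 for COL6A1 and 2.15 for NT5E. The 6 epithelial and endothelial markers summed to between 0.219 and 0.374 FPKM in untreated and between 0.370 and 0.496 FPKM in treated libraries, and only PECAM1 of them was high enough to be tested and did not pass. The endothelial markers CDH5 and VWF, under the filter, had depth-scaled fragment ratios of 6.20 (95% interval 2.76 to 16.3, 7 against 43 fragments) and 3.36 (95% interval 1.56 to 8.05, 9 against 30 fragments), exact Clopper-Pearson intervals of counting error only. The part of these marker changes in the results was not tested. As in any bulk sample, fewer cells of a kind and less RNA per cell cannot be told apart.

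Among the 8 of these 10 genes that were tested, TLR3 and UNC93B1 rose most after IFNβ on the log2(FPKM + 0.1) scale. TLR1 and TLR4 followed, while IRAK2 and TICAM1 rose slightly and IRAK1 fell. TLR6 did not pass the test, and MYD88 and TLR2 were too low to enter it. The groups were compared with limma on log2(FPKM + 0.1) for the 20716 genes whose mean FPKM reached 0.1, with Benjamini-Hochberg adjustment over all of them. Of the 10 genes, 8 were tested and 6 of these were higher with an adjusted p-value under 0.05, against 15.2% of all genes tested. Only 1 was lower, against 17.5%, so that 7 passed in either direction, against 32.7%. Among the 8 tested genes, treated and untreated libraries did not overlap for the same 7, against 46.6% of all genes tested, with 6 higher against 22.3% and 1 lower against 24.3%. When a log2 fold change of 1 or more in either direction was also required, the 3 genes TLR1, TLR3 and UNC93B1 were called higher, against 3.49% of all genes, and 0 were called lower, against 0.739% (4.22% in either direction). The median log2 fold change of the 8 tested genes was 0.61, beside 0.0002 for all genes tested. The pseudocount draws the fold changes of genes with a low FPKM towards 0.

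**Figure D1:**
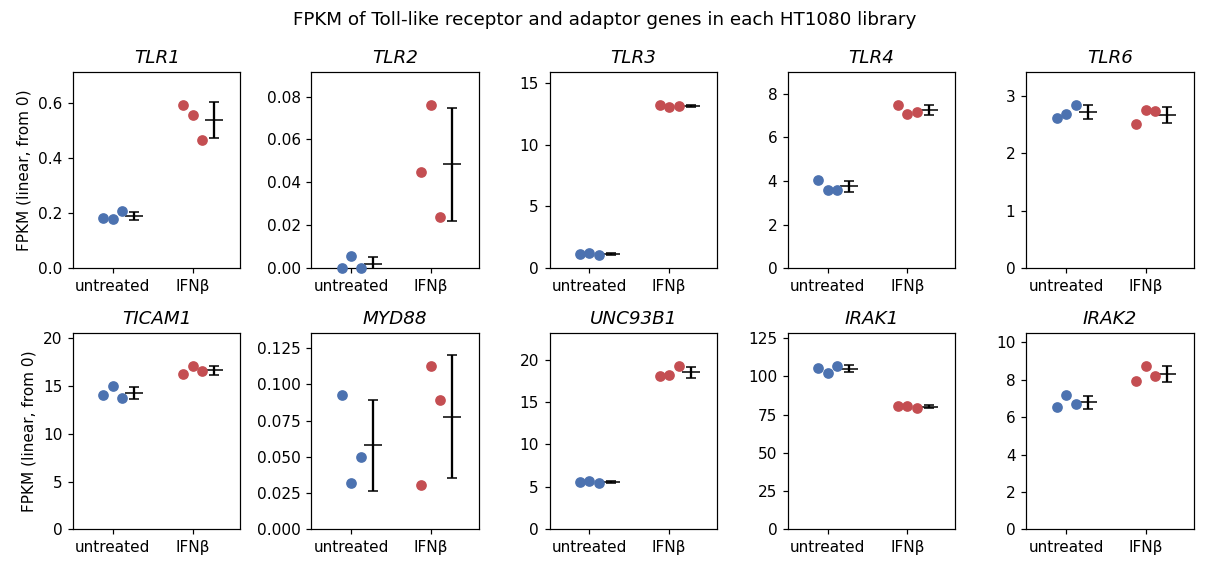
FPKM of each of the 10 genes in the 3 untreated (blue) and 3 IFNβ-treated (red) libraries, with a linear axis from 0 in every panel. Horizontal marks and bars are the mean and S.D. of a group, and the treated libraries lie apart from the untreated ones in all panels but those of TLR6 and MYD88.

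TLR3, the endosomal receptor for double-stranded RNA, had the largest log2 fold change of the 8 tested genes. TLR3 (ENSG00000164342) is a protein-coding gene on the forward strand of chromosome 4, from 186069152 to 186088069 (GENCODE release 29, GRCh38). Its level was 1.17, 1.19 and 1.10 FPKM in the untreated libraries and 13.3, 13.1 and 13.2 FPKM after IFNβ. All treated libraries were far above the untreated ones, and the libraries within a group were close together. The mean rose from 1.15 ± 0.0484 to 13.2 ± 0.0791 FPKM (S.D., n = 3 per group), 11.4 times higher. The log2 fold change was 3.41 (limma, standard error 0.04, adjusted p = 5.2e-08), and the values rest on 200 to 271 fragments in untreated and 2454 to 3061 fragments in treated libraries. None of its windows of 150 bases was found in a transcript of another gene in release 29.

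The promoter of TLR3 is shown because of this log2 fold change. RefSeq promoter windows (GRCh38.p14) run from 250 bases before to 50 after the gene start and were found for 8 of the 10 genes, not for TLR1 and UNC93B1. Both strands were searched for GAAANNGAAA, the core of the interferon-stimulated response element (ISRE), for TTCNNNGAA, the gamma-activated site (GAS) bound by STAT dimers, and for GGGNNTTTCC, a form of the κB element bound by NF-κB. Of 27305 promoter windows, 3.65% held the ISRE letters, 7.88% the GAS letters and 1.92% the κB letters. The TLR3 window, chr4:186068906-186069205 on the forward strand, held the ISRE letters in reverse complement from position -4 (TTTCACTTTC). It also held the GAS letters from positions -178 and -50, and none of these matches overlap. Positions are counted from the RefSeq gene start. The capitals mark these matches.
TLR3: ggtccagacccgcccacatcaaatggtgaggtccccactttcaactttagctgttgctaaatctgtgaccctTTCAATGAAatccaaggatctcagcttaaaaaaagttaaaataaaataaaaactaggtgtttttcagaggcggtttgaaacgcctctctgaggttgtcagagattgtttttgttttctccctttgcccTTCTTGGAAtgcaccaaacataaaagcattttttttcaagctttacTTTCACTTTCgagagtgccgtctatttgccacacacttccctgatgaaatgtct

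Among 11995 tested genes whose mean FPKM reached 1, STAT2 and UBA7 were of those whose pattern over the 6 libraries was nearest to that of TLR3. Likeness was measured as the root mean square difference of log2(FPKM + 0.1), centred on the untreated mean, and was 0.057 for STAT2 and 0.069 for UBA7. Their log2 fold changes were 3.35 and 3.47. STAT2 is a transcription factor that the interferon receptor activates, and UBA7 is the activating enzyme of ISG15 conjugation.

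TLR4, the receptor for bacterial lipopolysaccharide, rose by less. TLR4 (ENSG00000136869) lies on the forward strand of chromosome 9, from 117704175 to 117724730. It had 4.05, 3.60 and 3.59 FPKM in untreated libraries and 7.51, 7.10 and 7.18 FPKM after IFNβ, so the groups were well apart. The mean went up from 3.75 ± 0.264 to 7.26 ± 0.219 FPKM (S.D., n = 3 per group), and the log2 fold change came to 0.94 (limma, standard error 0.06, adjusted p = 7.1e-05), just under the fold threshold. In release 29 its exons share 558 bases with AL160272.2 on the same strand, which had at most 0.0067 FPKM in any library. Its co-receptor subunit LY96, which holds the lipopolysaccharide, had 3 to 10 fragments per library and did not pass the test (log2 fold change 0.39, limma adjusted p = 0.30), and the co-receptor CD14 had between 0 and 5 fragments.

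The promoter of TLR4 is shown beside that of TLR3 for comparison of the letters. The window, chr9:117704153-117704452 on the forward strand, held none of the 3 motifs, which says only that these letters are not in it. Release 29 starts TLR4 at 117704175, so most of this window lies inside the gene there, unlike the window of TLR3.
TLR4: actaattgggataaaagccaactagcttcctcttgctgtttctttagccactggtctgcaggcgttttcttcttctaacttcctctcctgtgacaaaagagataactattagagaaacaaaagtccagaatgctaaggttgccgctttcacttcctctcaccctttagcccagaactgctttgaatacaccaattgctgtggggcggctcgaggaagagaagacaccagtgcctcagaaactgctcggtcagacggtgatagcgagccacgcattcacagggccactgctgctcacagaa

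TLR3 and TLR4 changed places in the order of FPKM. Within each library, the log2 ratio of TLR3 to TLR4 (FPKM + 0.1) was -1.71, -1.52 and -1.62 in untreated cells and 0.81, 0.88 and 0.87 after IFNβ. By FPKM, TLR4 was thus the higher of both in every untreated library and TLR3 in every treated one. This order rests on the gene lengths behind the FPKM, 7496 bases for TLR3 and 13277 bases for TLR4. The treated libraries held 3061, 2454 and 2851 fragments of TLR3 and 3071, 2354 and 2754 fragments of TLR4. Whether the transcripts present have these lengths was not tested. The mean difference was 2.47 on the log2 scale (exact permutation test, two-sided, p = 0.10, n = 3 per group), and 0.10 is the smallest p-value that 3 libraries against 3 allow.

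TLR1, TLR2 and TLR6 belong to the branch that recognises bacterial lipopeptides, in which TLR2 pairs with TLR1 or TLR6. TLR1 (ENSG00000174125) is on the reverse strand of chromosome 4, from 38790677 to 38856817. It had 0.183, 0.178 and 0.208 FPKM in untreated and 0.594, 0.556 and 0.465 FPKM in treated libraries, without overlap. The mean rose from 0.190 ± 0.0157 to 0.538 ± 0.0661 FPKM (S.D., n = 3 per group), and the log2 fold change came to 1.14 (limma, standard error 0.17, adjusted p = 0.0031). These values rest on 19 to 31 and 61 to 83 fragments, and the log2 fold change was under the fold threshold with a pseudocount of 1 in place of 0.1 (0.37) and with quantile normalization (0.98).

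TLR6 (ENSG00000174130), from 38823715 to 38856817 on the same strand, is a neighbour and paralog of TLR1. It had 2.61, 2.69 and 2.84 FPKM in untreated and 2.50, 2.75 and 2.72 FPKM in treated libraries, and the groups overlapped. Its log2 fold change was -0.03 (limma, standard error 0.06, adjusted p = 0.77). The neighbours share 57 exon bases and 69 windows of 150 bases, which are 1.43% of the windows of TLR1 and 1.13% of those of TLR6. The log2 ratio of TLR1 to TLR6 was -3.26, -3.32 and -3.26 in untreated libraries and -1.91, -2.12 and -2.32 after IFNβ. Every treated library was above every untreated one, with a difference of 1.16 (exact permutation test, two-sided, p = 0.10, n = 3 per group).

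TLR2 (ENSG00000137462), on the forward strand of chromosome 4 from 153684070 to 153705702, was near the limit of detection and was not tested. It had 0, 1 and 0 fragments in untreated libraries and 8, 11 and 4 fragments in treated ones, or at most 0.00584 and between 0.0240 and 0.0762 FPKM. The groups did not overlap, as for 46.6% of all genes tested. That share covers only genes past the filter, which TLR2 was not, so it is no background for genes this low. Scaled by depth, the summed fragments were 23.2 times higher after IFNβ, with a 95% interval of 3.77 to 956 (exact Clopper-Pearson, counting error only). Over the whole series, 28093, 27187 and 27706 genes were above 0 in treated and 25554, 26685 and 26778 in untreated libraries. The part of this difference in ratios near the limit of detection was not tested. The exact permutation test of its FPKM gave p = 0.10 (two-sided, n = 3 per group).

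Of the 5 other human Toll-like receptors, 0 reached a mean FPKM of 0.1. TLR7, an endosomal receptor for single-stranded RNA, had 2, 0 and 1 fragments in untreated and 13, 4 and 6 fragments in treated libraries, a depth-scaled ratio of 7.74 with a 95% interval of 2.34 to 40.2 (exact Clopper-Pearson, counting error only). TLR10, the neighbour of TLR1 and TLR6, had 9, 1 and 5 against 9, 4 and 5 fragments. TLR5, the receptor for bacterial flagellin, had at most 3 fragments in any library. TLR8 was above 0 only in IFNβ replicate 3, with 0.0239 FPKM, so the number of its fragments cannot be recovered. TLR9, the receptor for unmethylated CpG DNA, had 0 fragments in all libraries, which allows up to 3 fragments.

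The makeup of the receptor transcripts changed with these values. FPKM are scaled by length, so the FPKM of the 10 human Toll-like receptors were added. Their sum was 8.13, 7.67 and 7.78 in untreated and 24.1, 23.7 and 23.7 in treated libraries. The shares rest on a single length per gene, 13277 bases for TLR4, 7496 for TLR3 and 6851 for TLR6. Whether the transcripts present have these lengths was not tested. In untreated cells TLR4 held 47.7 ± 1.97% of the sum, TLR6 34.6 ± 2.22% and TLR3 14.7 ± 0.755% (S.D., n = 3). After IFNβ TLR3 held 55.4 ± 0.281%, TLR4 30.5 ± 0.615% and TLR6 11.2 ± 0.682% (S.D., n = 3). For each of these 3 receptors, the shares of treated and untreated libraries did not overlap, whereas those of TLR1 did, with 2.41 ± 0.221% and 2.26 ± 0.262% (S.D., n = 3 per group).

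**Figure D2:**
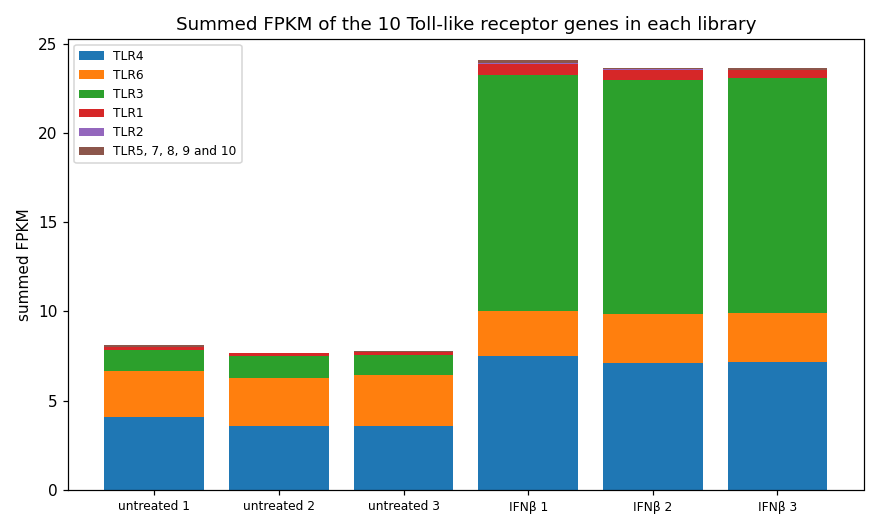
Summed FPKM of the 10 human Toll-like receptor genes in each library, stacked by gene on a linear axis from 0. The sum is between 7.67 and 8.13 in the untreated and between 23.7 and 24.1 in the IFNβ-treated libraries, and TLR3 (green) takes most of the treated bars.

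UNC93B1, the chaperone of the endosomal receptors, had the next largest log2 fold change after TLR3 among the 8 tested of the 10 genes. UNC93B1 (ENSG00000110057) is on the reverse strand of chromosome 11, from 67991104 to 68004982. It had 5.61, 5.72 and 5.41 FPKM in untreated and 18.1, 18.2 and 19.3 FPKM in treated libraries, far apart in comparison with the spread. The mean went up from 5.58 ± 0.155 to 18.5 ± 0.649 FPKM (S.D., n = 3 per group), and the log2 fold change came to 1.71 (limma, standard error 0.04, adjusted p = 6.0e-07). The genome holds pseudogenes of UNC93B1. Of its 4093 windows of 150 bases, 18 (0.44%) were found in other transcripts of release 29, those of UNC93B8 and UNC93B7. Both of these were listed at 0 in every library. Only exact matches were counted, and the part of near-identical copies in the level of UNC93B1 was not tested.

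Of 6 further genes of receptor folding and trafficking, all tested, 1 rose and 2 fell with an adjusted p-value under 0.05 (15.2% and 17.5% of all genes). SLC15A4, a lysosomal transporter needed for signaling from endosomal receptors, rose from 7.94 ± 0.304 to 9.51 ± 0.386 FPKM (S.D., n = 3 per group, limma adjusted p = 0.0051). LRRC59 and AP3B1 fell, with log2 fold changes of -0.10 and -0.15. HSP90B1 and CNPY3, which fold Toll-like receptors in the endoplasmic reticulum, did not pass, with log2 fold changes of 0.02 and 0.12.

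The adaptor of TLR3, TICAM1, rose slightly from a moderate level. TICAM1 (ENSG00000127666), on the reverse strand of chromosome 19 from 4815932 to 4831704, had 14.1, 14.9 and 13.8 FPKM in untreated and 16.2, 17.1 and 16.6 FPKM in treated libraries. The groups did not overlap. The mean went up from 14.3 ± 0.618 to 16.6 ± 0.452 FPKM (S.D., n = 3 per group), and the log2 fold change came to 0.22 (limma, standard error 0.04, adjusted p = 0.0057).

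MYD88 was nearly without fragments in both groups. MYD88 (ENSG00000172936), on the forward strand of chromosome 3 from 38138478 to 38143022, had 9, 4 and 7 fragments in untreated and 4, 12 and 11 fragments in treated libraries. These correspond to 0.0924, 0.0316 and 0.0499 against 0.0305, 0.113 and 0.0893 FPKM, and the groups overlapped. The depth-scaled ratio of the summed fragments was 1.36, with a 95% interval of 0.736 to 2.56 (exact Clopper-Pearson, counting error only), and the exact permutation test gave p = 0.70 (two-sided, n = 3 per group). The gene length behind the FPKM was 4264 bases, beside 3989 exon bases in release 29, and none of its windows of 150 bases was found in another gene of that release. How the counting treated exons that belong to several gene models is not given in the sources used here, and 4436 of the gene IDs are not in release 29, so a low value here is the level as listed and its source was not tested.

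The promoters of both adaptors are shown because each held a motif. TICAM1 did not pass the fold threshold, and MYD88 was too low to be tested. The MYD88 window, chr3:38138411-38138710 on the forward strand, held the ISRE letters from position -61 (GAAAGCGAAA) and the GAS letters from position -67, which overlap each other. Release 29 starts MYD88 at 38138478, so both matches lie inside the gene there. The TICAM1 window, chr19:4831663-4831962 on the reverse strand, held the κB letters from position -120. Of the 8 windows, those of TLR3 and MYD88 held the ISRE letters, and 5 held none of the 3 motifs.
MYD88: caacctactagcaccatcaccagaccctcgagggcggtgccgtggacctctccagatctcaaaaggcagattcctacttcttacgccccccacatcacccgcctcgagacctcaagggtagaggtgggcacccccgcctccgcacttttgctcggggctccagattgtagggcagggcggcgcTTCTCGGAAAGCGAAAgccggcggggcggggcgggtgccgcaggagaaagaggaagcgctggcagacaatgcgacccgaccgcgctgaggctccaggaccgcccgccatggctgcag
TICAM1: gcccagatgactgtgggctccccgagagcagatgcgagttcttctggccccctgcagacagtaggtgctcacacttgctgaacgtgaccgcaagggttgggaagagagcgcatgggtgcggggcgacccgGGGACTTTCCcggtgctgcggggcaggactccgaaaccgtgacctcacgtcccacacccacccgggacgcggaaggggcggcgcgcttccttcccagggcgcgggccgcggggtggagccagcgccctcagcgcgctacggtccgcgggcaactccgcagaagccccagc

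The log2 ratio of TICAM1 to MYD88 was 6.20, 6.84 and 6.53 in untreated and 6.96, 6.34 and 6.46 in treated libraries. The groups overlapped and differed by 0.06 (exact permutation test, two-sided, p = 0.80, n = 3 per group). This value changed sign when untreated replicate 1 or IFNβ replicate 1 was left out. MYD88 had 0.0305 to 0.113 FPKM, near the pseudocount of 0.1, so the size of this ratio rests largely on the pseudocount.

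Of 4 further TIR adaptors and related proteins, 3 were tested and 1 was called higher (3.49% of all genes). PIK3AP1, also known as BCAP, which links Toll-like receptors to phosphoinositide 3-kinase, rose from 0.735 ± 0.0903 to 3.05 ± 0.102 FPKM (S.D., n = 3 per group). Its log2 fold change was 1.92 (limma, standard error 0.10, adjusted p = 3.3e-05). TIRAP, which brings MYD88 to TLR2 and TLR4, and SARM1, an NAD-cleaving TIR protein, did not pass, with log2 fold changes of -0.05 and -0.25. TICAM2, which brings TICAM1 to TLR4, was under the filter.

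The kinases IRAK1 and IRAK2 moved in opposite directions. IRAK1 (ENSG00000184216), on the reverse strand of chromosome X from 154010500 to 154019980, was the most abundant of the 10 genes, with 105, 102 and 107 FPKM in untreated and 80.7, 80.8 and 79.2 FPKM in treated libraries. All treated libraries were below all untreated ones. The mean went down from 105 ± 2.29 to 80.2 ± 0.913 FPKM (S.D., n = 3 per group), and the log2 fold change came to -0.39 (limma, standard error 0.02, adjusted p = 4.9e-05). Its exons share 61 bases with MIR718 on the same strand.

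IRAK2 (ENSG00000134070), on the forward strand of chromosome 3 from 10164865 to 10243743, had 6.52, 7.17 and 6.69 FPKM in untreated and 7.90, 8.74 and 8.20 FPKM in treated libraries. The groups did not overlap, and the log2 fold change was 0.28 (limma, standard error 0.05, adjusted p = 0.0076). The log2 ratio of IRAK1 to IRAK2 was 4.0, 3.82 and 3.98 in untreated and 3.33, 3.19 and 3.26 in treated libraries. IRAK1 stayed the more abundant kinase throughout, and the ratio was lower in every treated library, by -0.67 on the log2 scale (exact permutation test, two-sided, p = 0.10, n = 3 per group).

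**Figure D3:**
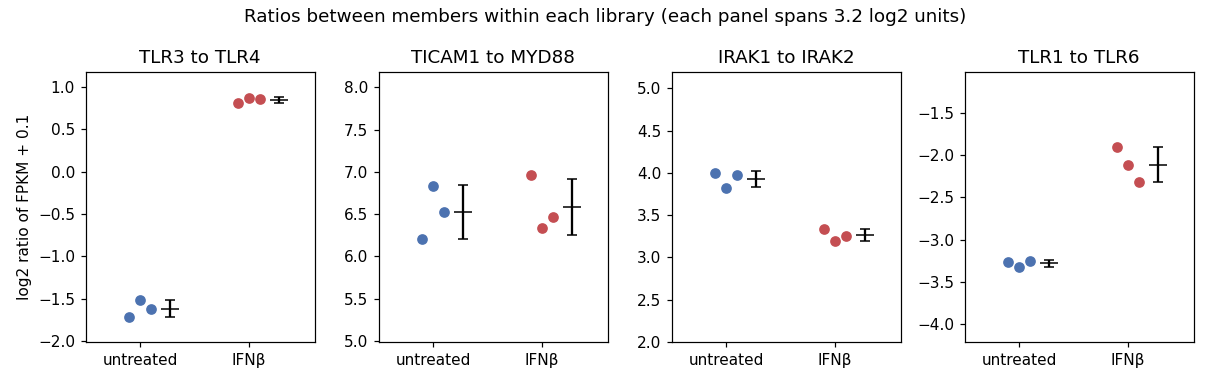
Log2 ratio of FPKM + 0.1 between pairs of genes within each library, for the 3 untreated (blue) and 3 IFNβ-treated (red) libraries, with the mean and S.D. of each group in black. TLR3 to TLR4, IRAK1 to IRAK2 and TLR1 to TLR6 are apart between groups, and TICAM1 to MYD88 overlaps.

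Of 5 further IRAK kinases and Pellino ubiquitin ligases, 4 were tested, 2 rose and 1 fell (15.2% and 17.5% of all genes). IRAK4, the kinase that MYD88 recruits first, rose with a log2 fold change of 0.29 (limma, standard error 0.07, adjusted p = 0.018) and PELI1 with one of 0.28 (limma adjusted p = 0.049). Among genes of the wider pathway list that passed, PELI2 had the lowest log2 fold change, -0.51, and went from 1.87 ± 0.131 to 1.28 ± 0.105 FPKM (S.D., n = 3 per group; limma, standard error 0.09, adjusted p = 0.0064). IRAK3, an inhibitory family member known from monocytes, was under the filter.

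In order of FPKM in untreated cells, IRAK1 was followed by TICAM1, IRAK2, UNC93B1, TLR4, TLR6, TLR3, TLR1, MYD88 and TLR2. No neighbours in this order overlapped between their libraries. After IFNβ the order was IRAK1, UNC93B1, TICAM1, TLR3, IRAK2, TLR4, TLR6, TLR1, MYD88 and TLR2, and of these neighbours MYD88 and TLR2 overlapped. By FPKM, TLR3 thus went from rank 7 to rank 4 and UNC93B1 from rank 4 to rank 2. These ranks rest on a single length per gene, and whether the transcripts present have these lengths was not tested. Summed over the treated libraries, there were 8366 fragments of TLR3, 8179 of TLR4 and 5545 of UNC93B1.

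The wider pathway list held 58 genes, of which 45 were tested, 15 rose and 6 fell with an adjusted p-value under 0.05, beside 15.2% and 17.5% of all genes. The genes called higher were 2, PIK3AP1 and TRIM38, beside 3.49% of all genes, and 0 were called lower, beside 0.739%. The median log2 fold change of the 45 genes was 0.09.

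Of 7 genes of the ubiquitin ligases and the TAK1 complex, all tested, 3 rose and 2 fell (15.2% and 17.5% of all genes). RIPK1, a kinase that binds TICAM1, rose with a log2 fold change of 0.34 (limma adjusted p = 0.0016), and TRAF3, which links TICAM1 to TBK1, fell with one of -0.23 (limma adjusted p = 0.0013). TRAF6, the ubiquitin ligase downstream of IRAK1, did not pass (log2 fold change 0.06). Of 6 IKK and TBK1 kinases and partners, all tested, 2 rose and 0 fell (15.2% and 17.5% of all genes), and IKBKE, which phosphorylates IRF3, had the largest value at 0.53 (limma, standard error 0.04, adjusted p = 1.8e-04). TBK1 itself had a log2 fold change of 0.05 and did not pass.

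Of 5 transcription factors at the end of the pathway, all tested, 2 rose and 1 fell (15.2% and 17.5% of all genes). IRF3, the factor activated through TICAM1, rose from 8.15 ± 0.115 to 12.3 ± 0.202 FPKM (S.D., n = 3 per group), or by 0.59 on the log2 scale (limma, standard error 0.03, adjusted p = 1.8e-05). RELA rose and NFKB1 fell, with log2 fold changes of 0.13 and -0.16. IRF5 and IRF7 did not pass, with log2 fold changes of 0.37 and 0.015 (limma adjusted p = 0.22 and 0.97).

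Of 9 inhibitors, 8 were tested, 3 rose and 0 fell (15.2% and 17.5% of all genes). TRIM38, a ubiquitin ligase known to restrain TICAM1 and TRAF6, rose from 3.33 ± 0.111 to 13.3 ± 0.282 FPKM (S.D., n = 3 per group), or by 1.96 on the log2 scale (limma, standard error 0.04, adjusted p = 3.1e-07). The deubiquitinase CYLD rose with a log2 fold change of 0.29 (limma adjusted p = 0.010), and TNFAIP3 did not pass (log2 fold change 0.15). Of 5 genes of the IL-1 receptor family, 4 were tested, 1 rose and 0 fell (15.2% and 17.5% of all genes). IL1R1, which shares MYD88 with the Toll-like receptors, rose from 0.289 ± 0.0435 to 0.521 ± 0.0593 FPKM (S.D., n = 3 per group).

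**Figure D4:**
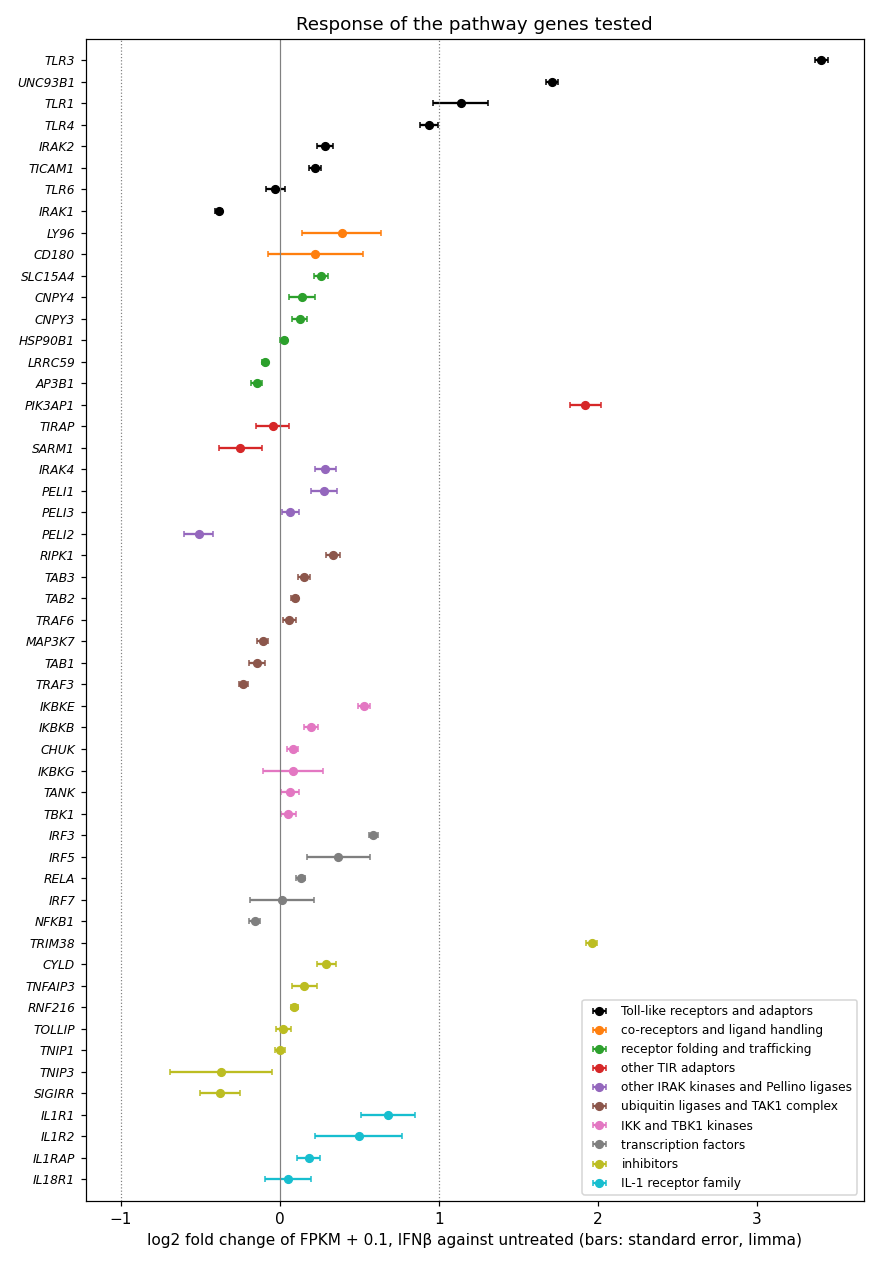
Log2 fold change of FPKM + 0.1 after IFNβ for the 8 tested Toll-like receptor and adaptor genes (black) and the 45 tested genes of the wider list, coloured by role, with the standard error from limma as bars. Dotted lines mark a log2 fold change of 1 in either direction, which TLR3, UNC93B1, TLR1, PIK3AP1 and TRIM38 exceed.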

How the data were processed

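RNA of 6 HT1080 libraries was sequenced, 3 untreated and 3 treated with IFNβ. The deposited FPKM were calculated by the authors per Ensembl gene, separately in every library. The submitters' processing notes name fastp, HISAT2, StringTie and GRCh38. The annotation, the counting step, strandedness and versions are not given in the sources used here.

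Groups came from the sample titles. Symbols were found for 42303 of the gene IDs in a table of Ensembl gene names. Whole fragments were recovered for 100% of the 35303 genes above 0, to within 1e-06 of each value. They came from the fixed ratio that ties the FPKM of a gene to its fragments in every library. The smallest whole numbers that fit were taken. A gene above 0 in a single library thus got 1 fragment whatever its true number. The test was limma 3.58.1 under R 4.3.3 (lmFit, then eBayes with trend), applied to log2(FPKM + 0.1) where the mean FPKM reached 0.1, without covariates. Calls needed a p-value, adjusted by Benjamini-Hochberg, under 0.05 and, where stated, a log2 fold change of 1 or more in size. All adjusted p-values come from this fit. Ratios were tested by exact permutation. Other steps used Python 3.11.15, pandas 2.3.3, numpy 2.4.6 and scipy 1.17.1. The procedure was run on simulated data, in which the changed genes all had changes past the fold threshold and were not near the limit of detection. That run does not bear on smaller changes or on genes with few fragments.

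The genes described, the wider lists, the naming rule and the tests were chosen with earlier results of these data known. Named genes are the 10 genes, called genes and the largest fall of the wider list, examples by role, marker and check genes, overlapping genes, and the 3 nearest in pattern to TLR3. Those nearest to MYD88 are not given, since it had 4 to 12 fragments per library. 1 gene that this rule names is not reported here. Examples by role were picked after their values were seen. The alternatives were other pseudocounts, filters and scalings, eBayes without trend, a replicate block, each library left out, and limma-voom on recovered fragments. The libraries of a group differed by more than counting error (chi-square divided by its degrees of freedom, 1.78 to 3.39). The labels do not say whether they came from separate cultures, so p-values measure only the spread between these libraries, which may be technical.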

Additional observations from a re-analysis of the deposited data

How the results depend on the processing

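The 7 genes past an adjusted p-value of 0.05 kept their direction and their side of that threshold under all alternatives in which they were tested, including limma-voom on recovered fragments. TLR1 was not tested where the mean FPKM had to reach 1, and was under the fold threshold with a pseudocount of 1 (0.37) and with quantile normalization (0.98). TLR6, which was not called, had log2 fold changes between -0.0545 and 0.0129 with single libraries left out and changed sign without untreated replicate 3 (0.0041) and without IFNβ replicate 1 (0.0129). The median log2 fold change of the tested genes, 0.61, was 0.31 with a pseudocount of 1, 0.40 without a filter, 0.28 with the filter at a mean FPKM of 1 and 0.59 with quantile normalization. The first follows from the pseudocount's weight on low genes, the second from 10 and the third from 7 genes tested, and the cause of the last was not tested. Without a filter, TLR2 had a limma adjusted p-value of 0.072 and MYD88 one of 0.75. The difference in the ratio of TICAM1 to MYD88, 0.06, was -0.0942 with a pseudocount of 0.01. With a pseudocount of 1 it was 0.18 (exact permutation test, two-sided, p = 0.10). It lay between -0.12 and 0.22 with single libraries left out, for which the cause was not tested.

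Same-numbered libraries had correlations of deviations of 0.053, -0.018 and 0.122, and differently numbered ones lay between -0.151 and 0.099. With 3 libraries per group these values cannot decide whether the libraries were paired. The numbers were not taken as pairs. With a replicate block, 6 genes were higher and 1 lower as before, 3 of them called higher, and TLR3 had a log2 fold change of 3.41. Calls over all genes were 829 against 875. They were 304 with a pseudocount of 1 and 425 with the filter at 1, which tests 11996 genes. Limma-voom on the recovered fragments called 1098. Levels under 0.1 FPKM rest on few fragments, which limits what can be said of TLR2, TLR7 and MYD88.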
